A study of Homo sapiens with 6 samples.

Results

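The NDRG family comprises 4 genes, NDRG1, NDRG2, NDRG3 and NDRG4, each of which was found by its symbol among the 33835 gene rows of the count table, so 4 of 4 members were present and all 4 passed the filter on low counts. Gene expression was profiled by RNA sequencing in DU145, an established human prostate cancer cell line. Cells of the shE6AP group (3 libraries) were transduced with a short hairpin against E6AP, the HECT-domain ubiquitin ligase encoded by UBE3A, and cells of the wobble group (3 libraries) with a control for that hairpin. Both groups received doxycycline, the inducer of the hairpin, at 0.2 µg/ml for 2.5 days, so the wobble libraries are also from doxycycline-treated cells. The labels do not describe the wobble sequence, and do not say whether each group was a pool or 1 clone of transduced cells or whether its libraries came from separate cultures. The p-values therefore measure only the spread between these libraries, which may be technical.

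NDRG proteins share an alpha/beta-hydrolase-like fold but are not known to act as hydrolases. NDRG1 is induced by hypoxia, iron depletion and other stresses, is repressed by MYC and N-MYC, from which the family takes its name (N-myc downstream regulated gene), and is phosphorylated by SGK1 and then GSK3; it has been described as a suppressor of metastasis in prostate cancer. NDRG2 is best known from astrocytes and as a gene silenced in several tumours. NDRG3 has been described as a lactate-binding protein of the hypoxic response, and NDRG4 is best known from heart and brain. The 4 genes lie on different chromosomes.

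Promoter sequences from RefSeq (build GRCh38.p14, a later build than the hg19 used for the counts) matched 2 of the 4 symbols, NDRG2 with 5 start sites and NDRG4 with 4. For each, the 250 bases before the start were searched on both strands for ACGTG and GCGTG, the 2 forms of the core that hypoxia-inducible factors (HIF) bind, and for CACGTG, the E-box bound by MYC and MAX, which contains ACGTG. The stretches shown are those with the most matches to the HIF core outside annotated exons, the first of equals for NDRG2, because NDRG1 is known as a hypoxia-induced gene and the comparison below asks how the other members behaved beside it. Capitals mark GCGTG, or CACGC where the match is on the other strand. The NDRG2 stretch lies at chr14:21025106-21025355 on the minus strand and the NDRG4 stretch at chr16:58463465-58463664 on the plus strand, both upstream of a start site and outside exons of GENCODE release 29.
NDRG2: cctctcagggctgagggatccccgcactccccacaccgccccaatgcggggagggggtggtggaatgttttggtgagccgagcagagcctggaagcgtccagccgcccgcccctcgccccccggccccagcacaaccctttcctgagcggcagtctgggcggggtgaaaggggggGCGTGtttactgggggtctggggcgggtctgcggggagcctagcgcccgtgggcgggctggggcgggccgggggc
NDRG4: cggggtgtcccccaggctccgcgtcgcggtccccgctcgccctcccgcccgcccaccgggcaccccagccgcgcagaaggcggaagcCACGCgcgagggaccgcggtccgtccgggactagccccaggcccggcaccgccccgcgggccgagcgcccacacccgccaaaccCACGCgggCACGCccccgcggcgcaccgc
The NDRG2 stretch held 1 match in 250 bases and the NDRG4 stretch 3 in 200. GCGTG was found in 32.2% of all 35116 promoter windows of 250 bases and ACGTG in 18.5%. The stretches were chosen for their matches, so their counts cannot be set against these shares. With bases in exons included, the NDRG2 windows held 1, 1, 0, 0 and 1 matches to GCGTG in order of position, the first 2 windows overlapping. The NDRG4 windows held 4, 0, 0 and 0. ACGTG and CACGTG were in none of the 9 windows of NDRG2 and NDRG4, against 6.34% of all windows for CACGTG. The NDRG2 stretch, of which 73.6% was G or C, also held 7 copies of GGGCGG, the GC box bound by SP1, counted on both strands. The NDRG2 windows held 8, 7, 2, 0 and 0 copies in order of position. At least 1 copy was present in 42.6% of all windows, which is a share of windows and no measure of copy number. These matches describe letters in the windows and are no evidence of binding.

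Reads assigned to genes ran from 21558506 to 30488217 per library, enough to give each NDRG gene at least 221 reads in every library. Libraries of 1 group differed by a chi-square per gene of 1.76 to 3.52, where sampling of reads alone would give 1. None was therefore treated as a second sequencing of another. These values cannot tell separate cultures from separate preparations of 1 culture. Between groups the chi-square per gene was 47.6 to 55.1. The hairpin's target was lower in every shE6AP library: UBE3A stood at 14.2, 14.5 and 15 CPM (reads relative to library size, adjusted by TMM factors) in shE6AP and at 54.1, 55.4 and 57.9 CPM in wobble (log2 fold change -1.94, SE 0.0512). Of 19433 genes tested, 59.0% passed the threshold in edgeR's quasi-likelihood test at a Benjamini-Hochberg adjusted p under 0.05, 28.6% higher and 30.4% lower in shE6AP. Epithelial keratin genes KRT8 and KRT18 were abundant, at 318 and 351 CPM in wobble, whereas no row was matched to KLK3 or KLK2, which encode prostate kallikreins.

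NDRG1 rose several-fold in cells carrying the E6AP hairpin, while the other members changed little: NDRG4 fell to 82.4% of its wobble level, NDRG3 fell slightly, and NDRG2 did not pass the test. The 3 of 4 members past the threshold, 1 higher and 2 lower, are to be read against the 59.0% of all genes that passed; a share of this size is not a result about the family. The same 3 genes did not overlap between groups, beside 62.6% of all genes. What set NDRG1 apart was the size of its change, since 3.23% of genes tested passed and were at least doubled, and 1.09% had a log2 fold change as large as that of NDRG1.

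The NDRG1 transcript was at 146, 148 and 144 CPM in the shE6AP group (libraries 1 to 3, as in the values that follow) and at 42.1, 40.5 and 39.2 CPM in the wobble group. The lowest shE6AP library was thus more than 3 times the highest wobble library, and the libraries of each group lay close together. In raw counts these were 4163, 3151 and 3450 reads against 1275, 1170 and 1063. The means were 146 ± 1.85 CPM in shE6AP and 40.6 ± 1.44 CPM in wobble (SD, n = 3 each), with a log2 fold change of 1.84 (SE 0.0385, 95% interval 1.77 to 1.92), a 3.59-fold higher level, and edgeR's quasi-likelihood test gave an adjusted p of 4.85e-35. Of all genes tested, 210 had a larger log2 fold change, and 16 genes, NDRG1 included, had an adjusted p as small (0.0823%). The exact permutation p of NDRG1, two-sided over libraries, was 0.1, below which 3 against 3 cannot go; NDRG3 and NDRG4 also had 0.1 and NDRG2 0.7.

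NDRG4 was the only other member whose fall kept its call under every scaling and with each library left out. Its levels were 9.78, 10.4 and 10.2 CPM in shE6AP and 13, 11.7 and 12 CPM in wobble, without overlap. The log2 fold change was -0.28 (SE 0.0746, 95% interval -0.43 to -0.13), so 82.4% of the wobble level remained (adjusted p = 0.00129, edgeR's quasi-likelihood test). Of all genes tested, 24.6% had a log2 fold change as low or lower. The fall did not pass when tested against a fold of 1.2 (glmTreat, adjusted p = 0.435).

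NDRG3 had the smallest coefficient of variation of the members in wobble, 1.58%, and one of 2.58% in shE6AP. It stood at 61.4, 64.4 and 61.9 CPM in shE6AP and at 65.9, 66.5 and 68.0 CPM in wobble, so that the highest shE6AP library lay just below the lowest wobble library. The log2 fold change of -0.095 (SE 0.0388, 95% interval -0.173 to -0.0168) left 93.6% of the wobble level, and edgeR's quasi-likelihood test gave an adjusted p of 0.0326. This call ended with upper-quartile scaling (adjusted p = 0.135), library-total scaling (0.056) and DESeq2 (0.11), and without shE6AP library 1 (0.121), shE6AP library 3 (0.102), wobble library 2 (0.0527) or wobble library 3 (0.0717). The direction was lower in each of these.

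NDRG2 showed no difference that could be told from the spread between libraries. Its levels were 14.1, 13.1 and 12.1 CPM in shE6AP and 13.6, 13.3 and 11.5 CPM in wobble, and the groups overlapped over most of their range. The log2 fold change was 0.04 (SE 0.0747, adjusted p = 0.706 in edgeR's quasi-likelihood test), and its 95% interval of -0.115 to 0.187 corresponds to 92.3% to 114% of the wobble level. A change as large as that of NDRG1 lies far outside this interval, whereas one of the size of NDRG3's lies within it. NDRG2 was also the member with the widest spread, with a coefficient of variation of 7.94% in shE6AP and 8.93% in wobble, against 1.27% and 3.55% for NDRG1.

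**Figure D1:**
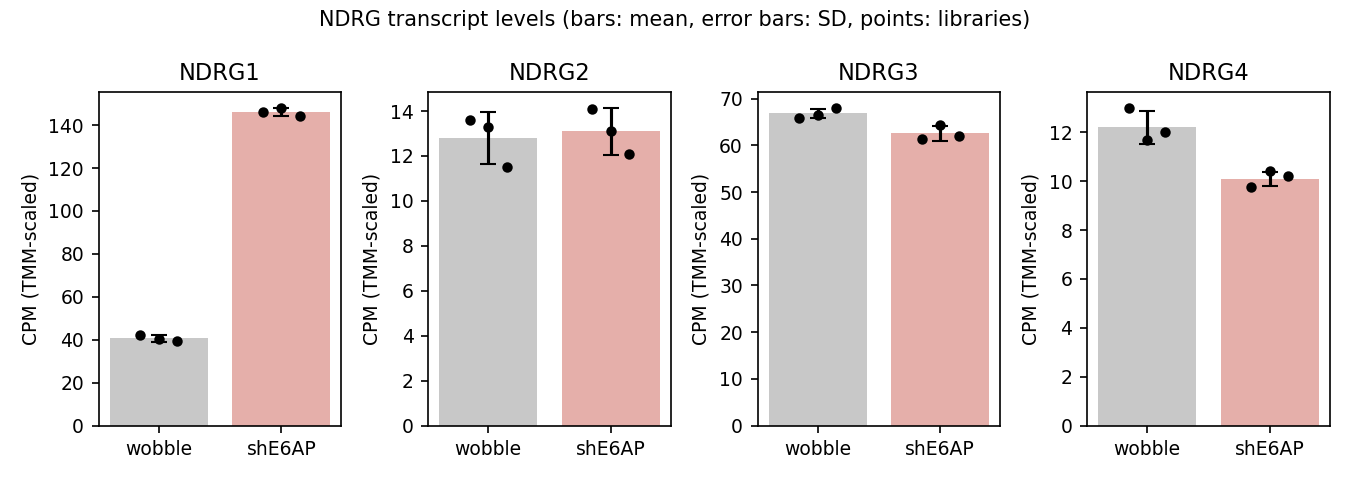
Level of each NDRG gene in TMM-scaled CPM (vertical axes, each from 0 and on its own scale) in the wobble and shE6AP groups; bars are means, error bars the SD and points the 3 libraries of a group. NDRG1 stood at 40.6 CPM in wobble and 146 CPM in shE6AP, while the NDRG2 libraries of the groups overlapped and those of NDRG3 and NDRG4 were lower in shE6AP.

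Ranked per kilobase of exon, the order of the members differed between the groups. In wobble, NDRG3 had the highest level, at 22.2 ± 0.351 CPM per kilobase, followed by NDRG1 at 10.8 ± 0.384, NDRG2 at 3.30 ± 0.295 and NDRG4 at 2.71 ± 0.151 (SD, n = 3 each). In shE6AP, NDRG1 came first with 38.8 ± 0.492 CPM per kilobase, ahead of NDRG3 at 20.8 ± 0.537, NDRG2 at 3.38 ± 0.268 and NDRG4 at 2.24 ± 0.0658. Neighbours in these orders did not overlap between libraries in either group; NDRG2 and NDRG4 came closest in wobble, at 2.96 to 3.51 and 2.60 to 2.88 CPM per kilobase. Lengths were those of all exons merged in GENCODE release 29, from 3007 bases for NDRG3 to 4516 bases for NDRG4, and with the longest transcript instead the order was unchanged, although NDRG2 in wobble then stood at 4.44 and NDRG4 at 3.37. Isoforms that the cells do not use would lower these values, most of all for NDRG2 and NDRG4, whose merged exons exceed their longest transcript by the widest margins.

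A ratio within a library does not depend on the scaling between libraries. NDRG1 held 63.1%, 62.7% and 63.1% of all reads on the 4 NDRG genes in the shE6AP group, in library order, but 31.3%, 30.7% and 30.0% in the wobble group, a difference of 32.3 percentage points. NDRG3 held 26.6%, 27.4% and 27.2% in shE6AP and 49.0%, 50.4% and 52.0% in wobble. NDRG1 thus took the largest share in every shE6AP library and NDRG3 in every wobble library. The shares of NDRG2 (5.65 ± 0.421% against 9.64 ± 0.744%, SD, n = 3 each) and NDRG4 (4.37 ± 0.128% against 9.23 ± 0.395%) were also lower in shE6AP, where the added NDRG1 reads enlarge the total. Summed over the family, the level was 232 ± 3.69 CPM in shE6AP and 132 ± 2.03 CPM in wobble, a difference of 99.2 CPM. Exact two-sided permutation tests gave p = 0.1 for each of these shares and for the sum, the smallest value 3 against 3 allow.

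**Figure D2:**
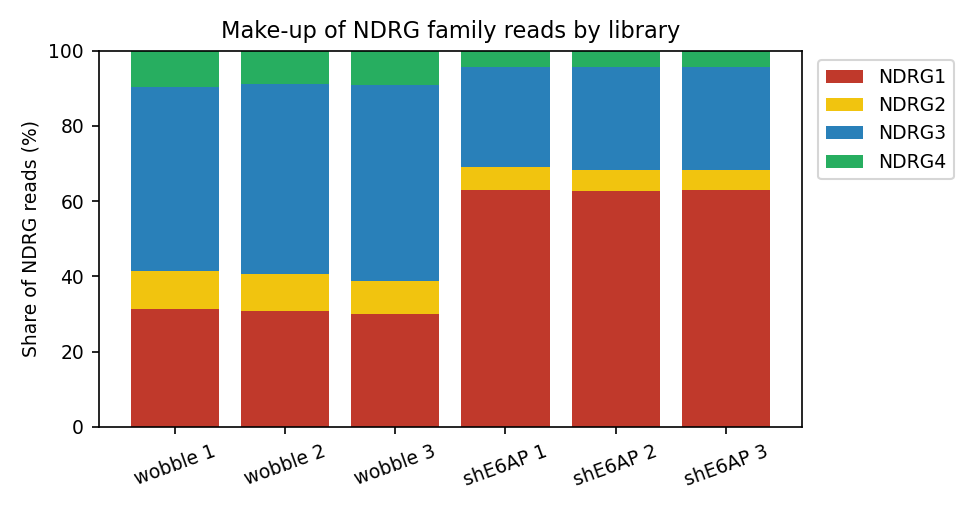
Share of the reads on the 4 NDRG genes held by each member (vertical axis, %) in each library (horizontal axis); each bar is 1 library and adds up to the whole family. NDRG1 made up 30.0% to 31.3% in wobble and 62.7% to 63.1% in shE6AP, and NDRG3 moved the other way.

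The members' changes were compared with each other through the log2 ratio of their reads within each library, over 6 pairs. The ratio of NDRG1 to NDRG3 was 1.25, 1.2 and 1.22 in shE6AP and -0.65, -0.72 and -0.79 in wobble, a difference of 1.94 (SE 0.0451). The differences were 1.81 (SE 0.0795) for NDRG1 over NDRG2 and 2.12 (SE 0.038) for NDRG1 over NDRG4. None of these 3 pairs overlapped between groups. Among the other members, NDRG3 over NDRG4 differed by 0.18 (SE 0.057) and NDRG2 over NDRG4 by 0.31 (SE 0.109), also without overlap, and NDRG2 over NDRG3 by 0.13 (SE 0.115), with overlap. The exact two-sided permutation p was 0.1, the smallest possible, for 5 pairs and 0.5 for NDRG2 over NDRG3, or 0.12 and 0.5 adjusted over the 6 pairs, so no pair could pass 0.05 in this design.

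Genes that control or accompany NDRG1 were examined through 7 lists. The share of members past the threshold ran from 61.5% to 88.9%, beside 59.0% of all genes, and the median log2 fold change of each list lay between -0.0383 and 0.0894, beside 0.00837 for all genes tested. In each list members moved both ways, and none of the medians approached the log2 fold change of NDRG1.

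Transcripts of the HIF pathway, through which low oxygen raises NDRG1, were 3 higher, 5 lower and 5 not passing of 13. HIF1A, the oxygen-regulated subunit of HIF-1, fell from 460 ± 13.4 to 355 ± 7.17 CPM (SD, n = 3 each, as for the levels that follow). EPAS1, which encodes HIF-2 alpha, rose from 102 ± 2.45 to 139 ± 3.93 CPM. ARNT2, a relative of the common HIF partner ARNT, rose from 3.21 ± 0.234 to 8.11 ± 0.728 CPM, and CITED2, an inhibitor that competes with HIF for the coactivators EP300 and CREBBP, fell from 553 ± 8.58 to 312 ± 12.7 CPM. Of the genes that limit HIF, VHL, which marks HIF for degradation, fell with a log2 fold change of -0.101. The prolyl hydroxylases EGLN2 and EGLN3, which prepare HIF for VHL, fell with -0.27 and -0.585 in that order. EGLN1 (-0.00587) and HIF1AN (-0.0134), another gene that limits HIF, did not pass.

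Among other hypoxia-induced genes, 14 were higher, 9 lower and 14 did not pass of the 37 tested of 38, and the share that passed, 62.2%, was near the 59.0% of all genes. PLOD2, a collagen lysyl hydroxylase, rose from 217 ± 5.48 to 762 ± 20.7 CPM, a log2 fold change of 1.81 beside 1.84 for NDRG1. RORA, a nuclear receptor, rose from 1.25 ± 0.0723 to 5.59 ± 0.261 CPM and ADM, which encodes the peptide adrenomedullin, from 3.15 ± 0.405 to 8.26 ± 0.493 CPM. LOXL2 also rose, from 332 ± 4.37 to 406 ± 16.6 CPM. ENO1, at 2860 ± 99.3 CPM in wobble, did not pass (-0.0172 on the log2 scale). Other members of the list fell. VEGFA went from 434 ± 12.7 to 285 ± 11.2 CPM, SLC2A1 from 329 ± 2.95 to 220 ± 5.2 CPM and PGK1 from 235 ± 9.72 to 164 ± 4.8 CPM. BHLHE40, a transcriptional repressor, fell from 108 ± 7.4 to 48.2 ± 4.1 CPM, JMJD6, a hydroxylase of the nucleus, from 52.1 ± 0.24 to 23.8 ± 1.04 CPM, and DDIT4, an inhibitor of mTORC1, from 179 ± 3.29 to 105 ± 6.11 CPM. The median over the list was 0.0595 on the log2 scale. CA9, the carbonic anhydrase most used as a marker of hypoxia, was at 0.0123 CPM in wobble and 0.0117 CPM in shE6AP and was not tested.

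In the MYC network, 4 genes were higher, 5 lower and 4 did not pass of 13 tested, and no row was matched to MYCN. MYC, known as a repressor of NDRG1, had 89.3 ± 5.91 CPM in wobble and rose to 101 ± 0.931 CPM in shE6AP (log2 fold change 0.18, SE 0.0391). Among the MAX-binding repressors MXD4 fell from 166 ± 4.93 to 101 ± 2.6 CPM and MXD3 rose from 9.97 ± 0.564 to 16.3 ± 1.22 CPM. MLXIPL, the glucose-responsive factor ChREBP, fell by 0.49 on the log2 scale and its partner MLX rose by 0.26.

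The kinases upstream of NDRG1 phosphorylation were 5 higher, 5 lower and 6 not passing of 16. SGK1, the kinase that primes NDRG1, stood at 5.29, 6.70 and 6.76 CPM in shE6AP and 4.36, 3.70 and 5.83 CPM in wobble. These groups overlapped, yet the fit placed SGK1 past the threshold (log2 fold change 0.43, SE 0.122, adjusted p = 0.00249 in edgeR's quasi-likelihood test). GSK3B, which acts on primed NDRG1, rose from 83.3 ± 1.69 to 120 ± 3.98 CPM. AKT1 fell, with a log2 fold change of -0.46, as did DEPTOR, an inhibitor within the mTOR complexes, from 6.69 ± 0.469 to 3.05 ± 0.292 CPM. Phosphorylation itself was not measured.

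Of 15 tested genes among other reported NDRG1 regulators, 6 were higher, 4 lower and 5 did not pass. PPARG, a nuclear receptor, fell from 57.5 ± 1.47 to 40.3 ± 1.16 CPM, and SP1, a general activator, rose from 140 ± 1.15 to 164 ± 1.62 CPM. TRPS1, a GATA-type factor, had 102, 76 and 95 reads in shE6AP and 0, 1 and 1 in wobble, too few there for a useful fold.

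Iron depletion raises NDRG1, and of the 17 tested iron handling genes 7 were higher, 7 lower and 3 did not pass. TFRC, the transferrin receptor, rose from 266 ± 8.46 to 413 ± 17 CPM and FTL, the ferritin light chain, by 0.49 on the log2 scale, although reads of FTL can also come from its processed pseudogenes. The proteins of TFRC and FTL are known to respond to iron in opposite ways through iron regulatory proteins, and protein was not measured here. IREB2, which encodes iron regulatory protein 2, fell from 68.0 ± 4.69 to 42.5 ± 1.25 CPM, and SLC25A37, the mitochondrial iron importer mitoferrin 1, rose from 97.7 ± 2.91 to 201 ± 4.09 CPM.

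Reported partners and targets of NDRG1 were 9 higher, 7 lower and 2 not passing of the 18 tested of 20. CTNNB1, which encodes beta-catenin, fell from 413 ± 4.37 to 277 ± 3.39 CPM. EGFR, the epidermal growth factor receptor, rose from 275 ± 11.3 to 401 ± 13.2 CPM and SMAD2, a transducer of TGF-beta, from 147 ± 0.822 to 209 ± 3.05 CPM. The list's percentage past the threshold, 88.9%, was the highest of the 7. Against a fold of 1.2, 5 of its 18 tested members were called, beside 5637 of all 19433 genes tested.

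**Figure D3:**
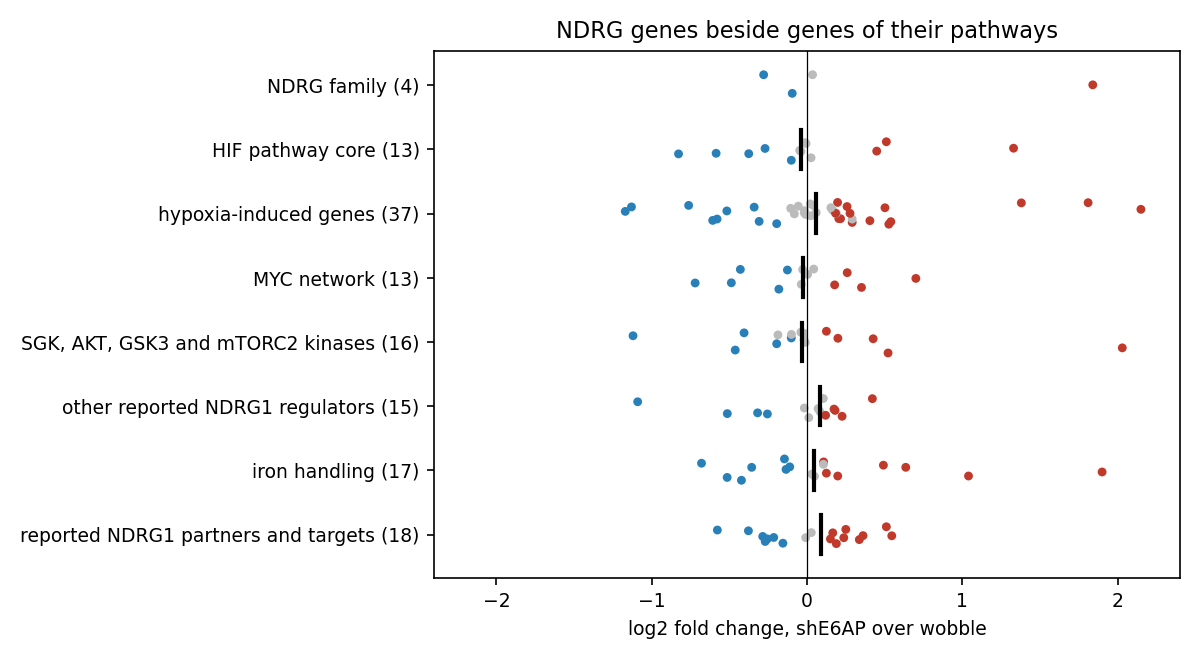
Difference of shE6AP from wobble as a log2 fold change (horizontal axis) for the NDRG genes and for each tested member of 7 lists (vertical axis, number tested in brackets); points are genes, red where they rose, blue where they fell and grey where they did not pass, and black bars are list medians. NDRG1, at 1.84, lies apart from its relatives, and every list holds points on both sides; TRPS1 lies beyond the axis.

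NDRG1 lies on chromosome 8, NDRG2 on 14, NDRG3 on 20 and NDRG4 on 16. The nearest genes of each member on its chromosome, taken as the 5 tested on each side in GENCODE release 29, differed in how they moved. Around NDRG1, 5 of 10 rose, 3 fell and 2 did not pass, with log2 fold changes from -2.99 to 3.30. ST3GAL1, a sialyltransferase and the first gene above NDRG1, rose from 2.34 ± 0.313 to 8.13 ± 0.512 CPM, a log2 fold change of 1.78 (SE 0.115). TG, the first gene below, had 20, 11 and 18 reads in shE6AP and 1, 5 and 4 in wobble, while PHF20L1, the second, did not pass (0.00694). The next 3 on the lower side, LRRC6, KCNQ3 and HHLA1, rose with log2 fold changes of 3.3, 1.53 and 0.824, so 4 of the 5 genes there were higher. The fold of LRRC6 rests on a low level, 0.277 ± 0.0964 CPM in wobble and 2.81 ± 0.446 CPM in shE6AP. Beyond ST3GAL1 on the upper side, ZFAT, KHDRBS3 and TRAPPC9 fell, with log2 fold changes of -0.206, -2.99 and -0.317, and AC107375.1 did not pass. Around NDRG2, which did not pass, 8 of 10 rose and 2 fell; around NDRG3, 5 rose and 4 fell; and around NDRG4, which fell, 7 rose and 2 fell. These counts of 10 genes each stand beside 28.6% higher and 30.4% lower among all genes tested, and no difference from that share was tested. SETD6, a methyltransferase and the first gene above NDRG4, rose by 0.68 and DSN1, a kinetochore gene and the first above NDRG3, by 0.62.

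The library kit does not mark strand, so strand cannot tell apart reads on bases shared by exons of 2 genes. Overlap was read here from gene spans, and overlap of exons was not examined. NDRG2 is the member with the most overlapping genes by span. ARHGEF40, on the opposite strand, overlaps its annotated span. It stood at 15.8 CPM in wobble and rose to 19.3 CPM in shE6AP, by 0.29 (SE 0.0641) on the log2 scale. TPPP2, also on the opposite strand, had 2 to 6 reads per library. Whether reads of these genes entered the NDRG2 count was not tested. The annotation places only short RNA genes without rows in the table within NDRG3 and NDRG4, and no gene within NDRG1.

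**Figure D4:**
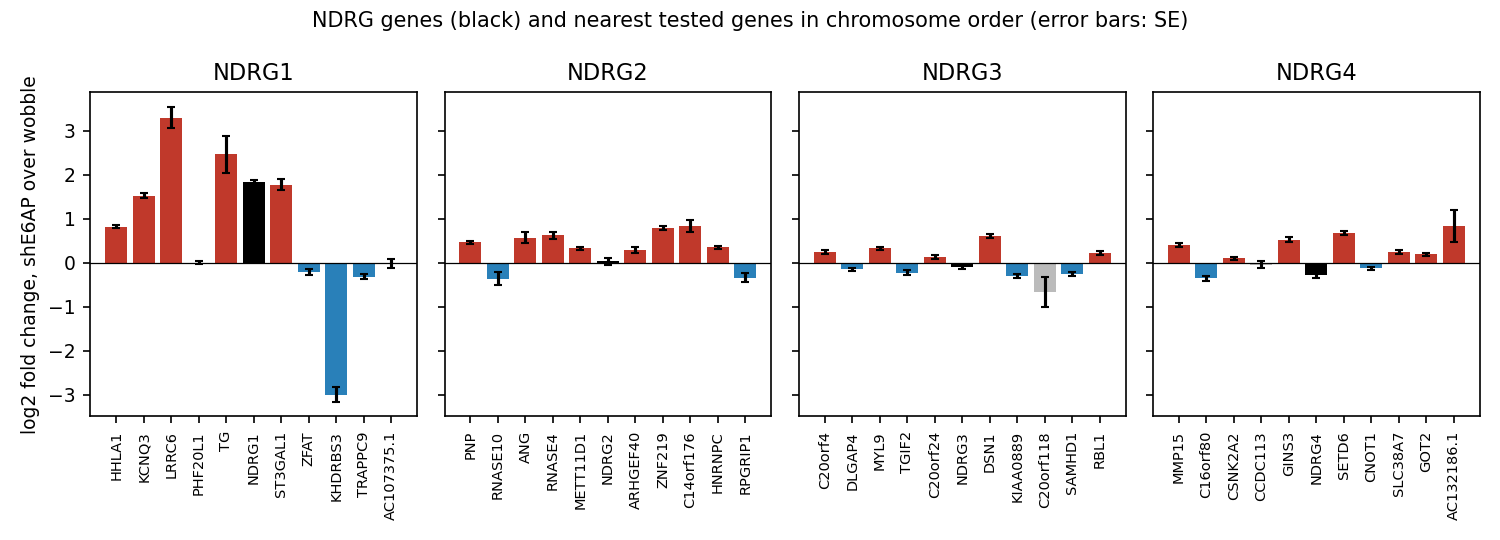
Log2 fold change of shE6AP over wobble (vertical axis, error bars the SE) for each NDRG gene (black) and the 5 nearest tested genes on each side in chromosome order (horizontal axis), red where they rose, blue where they fell and grey where they did not pass. Around NDRG1, TG, LRRC6, KCNQ3, HHLA1 and ST3GAL1 rose, by up to 3.3, and KHDRBS3 fell by 2.99, while the genes around the other members moved by less than 1. The value of 3.3 is that of LRRC6, which was at 0.277 CPM in wobble.

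The genes whose levels followed each member most closely over the 6 libraries were found by the distance between log2 CPM values centred on their mean, among 12383 genes of at least 5 CPM. For NDRG1 they were PDLIM2 (distance 0.0951, log2 fold change 1.80), PLOD2 (0.148, 1.81) and HAS3 (0.176, 1.90), where the median distance of all genes was 2.27. For NDRG4 they were RGS10, GLT8D1 and RASA3, at distances of 0.0457 to 0.0552, for NDRG3 UBR7, AKIRIN2 and GON4L, at 0.0198 to 0.0326, and for NDRG2 CTC-205M6.2, SLC29A4 and ATOX1, at 0.101 to 0.108. With 2 groups and 3 libraries each, likeness here is mostly likeness in the difference between groups.

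NDRG2 and NDRG1 are also known from glia, so markers of astrocytes and Schwann cells were read beside them. Of the 5 markers 3 were tested, 1 of which rose: GFAP stood at 3.18 ± 0.291 CPM in wobble and 6.48 ± 0.135 CPM in shE6AP. The summed level of the 5 was 4.69 to 4.89 CPM in wobble and 8.26 to 8.59 CPM in shE6AP, and AQP4 was at 0 in all wobble libraries. The neuron markers summed to 16.0 to 17.7 CPM in wobble and 20 to 21.7 CPM in shE6AP, where SYT1 alone rose (10.7 ± 0.878 to 14.9 ± 1.05 CPM) and RBFOX3 and SNAP25 did not pass (-0.00222 and -0.0263 on the log2 scale). The fibroblast markers summed to 12.5 to 15.5 and 17.6 to 19.0 CPM, of which COL1A1, the 1 called of 3 tested, made up 13.1 ± 1.2 and 17.3 ± 0.753 CPM. The sums were smaller for the endothelial markers, at 0.363 to 0.59 and 0.631 to 0.834 CPM, and for the blood markers, at 2.25 to 2.94 and 3 to 3.26 CPM. The part of these differences in the NDRG values was not tested. All libraries came from the DU145 cell line, and each of these sums was higher in shE6AP. The sum of the epithelial markers was higher too, at 918 to 948 CPM in wobble and 1050 to 1090 CPM in shE6AP. Of these 5 markers, 3 were called higher and 2 lower. The luminal prostate markers summed to 14.7 to 15 CPM in wobble and 19 to 20.4 CPM in shE6AP. In bulk RNA, more cells expressing a marker and more of its RNA per cell cannot be told apart.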

How the data were processed

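Per the labels' protocols, DU145 RNA was isolated in TRIzol and sequencing libraries were prepared with a TruSeq RNA kit. The submitters' processing notes name hg19 as the build, TopHat2 2.0.13 and Bowtie2 for alignment and HTSeq for counting; which annotation and strand option served is not given in the sources used here. The deposited table holds raw whole-number read counts, with genes as rows and 1 column for each library. HTSeq's summary rows (reads outside genes, 14.6% to 16.0% of the table, and ambiguous reads, 2.05% to 2.21%), 1 row without a name (at most 4.59e-05%) and 1 row without values were kept out of library sizes and tests.

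The counts were filtered with filterByExpr and scaled with TMM in edgeR 4.0.16 under R 4.3.3, the quasi-likelihood test had group as its only term, and p-values were Benjamini-Hochberg adjusted over all 19433 genes tested. The SE of a log2 fold change was taken from its F statistic. The fit was tested on simulated data. Permutation tests were exact and two-sided over libraries. The alternatives were DESeq2 1.42.0, limma-voom (limma 3.58.1), scaling by RLE, by the upper quartile or by library totals, robust dispersion, glmTreat, 2 other filters on low counts, a block for the replicate number, and a fit without each library in turn; an assumed variation of 0.1 and another gene length were added after seeing the data, as were the 5 neighbours on each side.

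The members and lists were chosen with earlier results of these data known. Named genes are UBE3A, the 4 NDRG genes, up to 4 passing members per list by smallest p, list members described for their role, the 3 genes nearest to each member in centred log2 CPM (prior count 2) and the adjacent genes. Further neighbours, SGK1's overlap, CA9, RORA, ADM, LOXL2, ENO1, VEGFA, SLC2A1, PGK1, HIF1AN and the markers named with values were singled out after their values were seen. Symbols absent from the table were matched through RefSeq synonyms where unambiguous. Values of 4 further genes are not reported here.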

Additional observations from a re-analysis of the deposited data

How the results depend on the processing

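The log2 fold changes of NDRG1 (1.82 to 1.87 over all alternatives) and UBE3A kept their direction and call in all 17 alternatives run. NDRG4 lost its call in 2, against a fold of 1.2 (log2 fold change -0.279, adjusted p = 0.435) and with an assumed variation of 0.1 (-0.275, 0.105). NDRG3 lost it with upper-quartile scaling (-0.0667, adjusted p = 0.135), library-total scaling (-0.0852, 0.056), DESeq2 (-0.0974, 0.11), a fold of 1.2 (-0.095, 1) and the assumed variation (-0.094, 0.591). With a library left out, NDRG3 ran from -0.119 to -0.0831 and lost its call for 4 of the 6; NDRG4 ran from -0.314 to -0.235. NDRG2 passed in none and changed sign without shE6AP library 1 or wobble library 3, with a range of -0.037 to 0.092 over the libraries left out. The shares of NDRG reads kept their direction.

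Against a fold of 1.2, 5637 genes were called (2553 higher, 3084 lower), and with the assumed variation 6743 (3110 and 3633), in place of 11467. Members called under these respective settings were 5 and 5 for the HIF pathway (8 in the fit reported), 13 and 15 for hypoxia-induced genes (23), 4 and 5 for the MYC network (9), 5 and 6 for the kinases (10), 4 and 5 for other regulators (10), 8 and 8 for iron handling (14) and 5 and 6 for partners and targets (16); here a stricter null or a larger assumed spread lowers counts by construction. Of the scalings, the upper quartile shifted the median over all genes most, by 0.0283 on the log2 scale, and gave 6073 higher and 5491 lower calls.

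The labels do not say whether the replicate numbers pair the samples, and the fit reported did not pair them. Deviations of same-numbered libraries correlated at 0.0166 to 0.0438 across genes, and those of differently numbered libraries at -0.0325 to -0.00567. All of these correlations were weak, although each library correlated best with its own number. With the number as a replicate block, NDRG1 stood at 1.84, NDRG2 at 0.0356, NDRG3 at -0.0945 and NDRG4 at -0.281, and 11979 genes were called (5849 higher, 6130 lower); no NDRG call changed.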
